A study of Mus musculus with 8 samples.

Results

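Galanin and 9 other genes of peptide signalling were followed across 8 RNA-seq libraries of laser-captured mouse spinal cord. The 10 genes, of 23278 in the deposited tables, were the peptide precursors Gal, Nppc, Npy, Tac1, Penk, Pdyn, Cck and Adcyap1 and the secretory granule proteins Vgf and Scg2. Gal and Nppc were chosen because their levels differed between SMA and WT motor neurons in these same libraries. Their values in that comparison are therefore given as a description, without a test. The other 8 genes were not picked on a value. Earlier results of these data were known when they and the gene lists used below were chosen. All 10 genes had at least 1 RPKM (a read count divided by gene length and by library size) in at least 2 libraries and were among the 13948 genes tested. A gene could pass that filter through 1 group alone.

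All mice were FVB/N at postnatal day 1, and the tissue was the lumbar spinal cord. Motor neurons of the ventral horn, and white matter taken as the glial comparison, were cut from hematoxylin-stained sections by laser, so cells were chosen by position and shape and not by a marker gene. The 4 groups, of 2 libraries each, were WT motor neurons, SMA motor neurons, WT white matter and SMA white matter. SMA mice, a model of spinal muscular atrophy, had the genotype SMN2+/+;SMNΔ7+/+;Smn-/-: they lack mouse Smn and carry 2 human transgenes, SMN2 and an SMN cDNA without exon 7, that make some SMN protein. The labels do not say which animals, or how many, gave each library. The p-values here thus reflect variation among libraries alone.

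Neuropeptides are made as larger precursors, packed into dense-core granules, cut by proprotein convertases such as Pcsk1 and Pcsk2, trimmed by Cpe and often amidated by Pam. They are released on activity and act on receptors of other cells, most of them coupled to G proteins. In the spinal cord, substance P, enkephalin and dynorphin are known for their part in sensory circuits of the dorsal horn. Galanin is best known for its rise in injured sensory and motor neurons.

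Transcription of several peptide genes is known to respond to cyclic AMP through CREB, which binds the palindrome TGACGTCA and, less tightly, its shorter core TGACG. The start-site regions below belong to the 2 genes picked for their change (Gal and Nppc), to Cck, which was also higher in both SMA motor neuron libraries, and to Scg2, whose window held the palindrome. Each runs 5′ to 3′ on the gene's strand from 100 bases before to 30 bases after the annotated start, in lower case with TGACG or its reverse complement in capitals.
Gal: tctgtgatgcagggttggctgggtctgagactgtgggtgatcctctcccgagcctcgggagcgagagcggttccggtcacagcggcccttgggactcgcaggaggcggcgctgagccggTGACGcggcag
Nppc: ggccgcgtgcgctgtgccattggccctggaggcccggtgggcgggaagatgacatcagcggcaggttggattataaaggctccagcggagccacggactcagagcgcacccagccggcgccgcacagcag
Cck: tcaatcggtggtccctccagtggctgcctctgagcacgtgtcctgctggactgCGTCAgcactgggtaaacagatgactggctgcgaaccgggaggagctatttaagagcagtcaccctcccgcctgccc
Scg2: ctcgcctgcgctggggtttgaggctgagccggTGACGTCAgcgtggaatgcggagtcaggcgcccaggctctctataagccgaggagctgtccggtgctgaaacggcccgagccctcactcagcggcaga
These are RefSeq sequences of build GRCm38.p6, all on the minus strand, at chr19:3414515-3414644 for Gal, chr1:86670544-86670673 for Nppc, chr9:121495665-121495794 for Cck and chr1:79439997-79440126 for Scg2. The expression values were made on another build, mm9. The search covered both strands of the full windows, 250 bases before to 50 after the start. The palindrome contains the core on each strand. TGACG was found for Gal, where it began 20 bases into the transcript, for Cck, where it began 47 bases before the start, and for Scg2, Tac1 and Adcyap1. That made 5 of the 8 members with a window, against 23.0% of all 27025 genes with one. TGACGTCA was found for Scg2 alone, beginning 68 bases before the start, against 2.03% of all genes. The windows of Nppc, Npy and Pdyn did not hold these letters. Vgf and Penk had no window, so their start-site regions were not searched. A match describes the sequence and is not a measured binding site.

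The denominators of the RPKM values corresponded to 77.5 to 102.8 M reads per library, and 45.1 to 68.2 M reads lay on genes other than the ribosomal RNA gene Rn45s. Rn45s took 19.4 to 33.4% of the RPKM sum, the most in SMA motor neuron replicate 2. The 2 SMA motor neuron libraries had a correlation of 0.889 across genes (genes are not replicates), against 0.936 to 0.963 for the library pairs of the other groups. The deleted gene Smn1 was at 6.82 and 2.93 RPKM in WT motor neurons, 5.30 and 14.3 in WT white matter and listed at 0 in all 4 SMA libraries. Motor neuron markers (18 genes, Chat among them) summed to 966 to 1326 RPKM in motor neuron captures and 13.6 to 37.9 in white matter. The 12 genes of myelinating oligodendrocytes summed to 51.9 to 137 RPKM in motor neuron captures and 2124 to 5116 in white matter, so both captures carried the markers of their labels. In each group, replicate 1 carried Xist (12.6 to 37.0 RPKM) and had Ddx3y at 0. Replicate 2 carried Ddx3y (0.628 to 6.37 RPKM) and had Xist at 0.0581 RPKM or less. The spread within every group, and so each SE, includes this difference. Levels below are RPKM, given by replicate, and means carry the SD with n = 2. Differences, given ± SE, are between group means of log2(RPKM + 1), a scale that understates changes at low levels.

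Galanin was low in WT motor neurons and several fold higher in both SMA motor neuron libraries. Gal stood at 2.70 and 2.62 RPKM in WT motor neurons (172 and 142 reads) and at 9.62 and 12.8 RPKM in SMA motor neurons (549 and 737 reads). The lowest SMA library lay above the highest WT library, in the comparison for which Gal was picked. The means were 2.66 ± 0.0581 (n = 2) and 11.2 ± 2.25 (n = 2), a ratio of 4.21, and the log2 difference was 1.72 ± 0.41. In white matter the order was the opposite. Gal was at 2.29 and 0.621 RPKM in WT white matter (139 and 42 reads) and at 0.0148 and 0.264 RPKM in SMA white matter (1 and 19 reads). The groups did not overlap, but the WT libraries lay farther from each other than the lower WT library lay from the higher SMA library.

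The white matter libraries had no part in the choice of Gal, so this difference was tested. The log2 difference was -1.03 ± 0.41 (95% interval -1.94 to -0.11), which had an unadjusted p of 0.0317 and did not pass after Benjamini-Hochberg adjustment over all genes with limma (adjusted p = 0.741). Over the alternative settings it lay between -4.31 and -0.52, with adjusted p from 0.403 to 1.00. It was -0.52 without WT white matter replicate 1, the library with the most Gal. Motor neuron markers summed to 23.4 and 13.6 RPKM in WT white matter and 37.9 and 22.6 in SMA white matter. Interneuron markers summed to 28.4 and 9.15 RPKM in WT and 35.3 and 27.8 in SMA white matter. The part of neuronal RNA in the Gal values of white matter was not tested.

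Nppc, which encodes C-type natriuretic peptide, went the other way in motor neurons. It was at 26.8 and 23.6 RPKM in WT motor neurons (2539 and 1904 reads) and at 6.76 and 7.33 RPKM in SMA motor neurons (575 and 629 reads). The groups did not overlap, in the comparison for which Nppc was picked. The same held for 28.2% of all genes tested. The means were 25.2 ± 2.26 (n = 2) and 7.04 ± 0.404 (n = 2), a WT to SMA ratio of 3.57, and the log2 difference was -1.70 ± 0.34. In white matter Nppc was below 1 RPKM, at 0.685 and 0.0893 RPKM in WT (62 and 9 reads) and 0.932 and 0.886 RPKM in SMA (94 and 95 reads). Both SMA libraries were higher there. The log2 difference of 0.50 ± 0.34 did not pass with limma (adjusted p = 0.763), stood beside a shift of 0.27 for all genes, and was 0.18 without WT white matter replicate 2.

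Summed levels of marker lists are given beside these values. In motor neuron captures, interneuron markers (19 genes, among them Gad1, Slc17a6 and Sst) summed to 228 and 220 RPKM in WT and 261 and 389 in SMA. All 12 of the 19 that were tested had positive SMA minus WT differences (median 0.45, against -0.05 for all genes tested), and 0 of 12 passed the test. The differences ran from 0.02 for Slc17a6 and 0.03 for Gad1, both close to none, to 1.22 for Lhx5. Motor neuron markers summed to 1326 and 1192 RPKM in WT and 966 and 1030 in SMA. Of their 18 differences, 16 were negative (median -0.35) and 0 passed. Microglial markers (12 genes) summed to 48.8 and 50.6 RPKM in WT and 81.3 and 68.5 in SMA motor neuron captures, with 8 of 12 positive (median 0.67) and 0 passing. Myelinating oligodendrocyte markers summed to 80.4 and 51.9 RPKM in WT and 137 and 91.8 in SMA, with 10 of 11 tested positive (median 0.38) and 0 passing. Markers of dorsal root ganglion neurons, where Gal and Tac1 are also known, summed to at most 2.62 RPKM over 12 genes in motor neuron captures, with Mrgprd at 0 in all 8 libraries. The part of these cells in the Gal and Nppc values was not tested. In bulk captures, fewer cells of a type and less RNA per cell cannot be told apart.

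**Figure D1:**
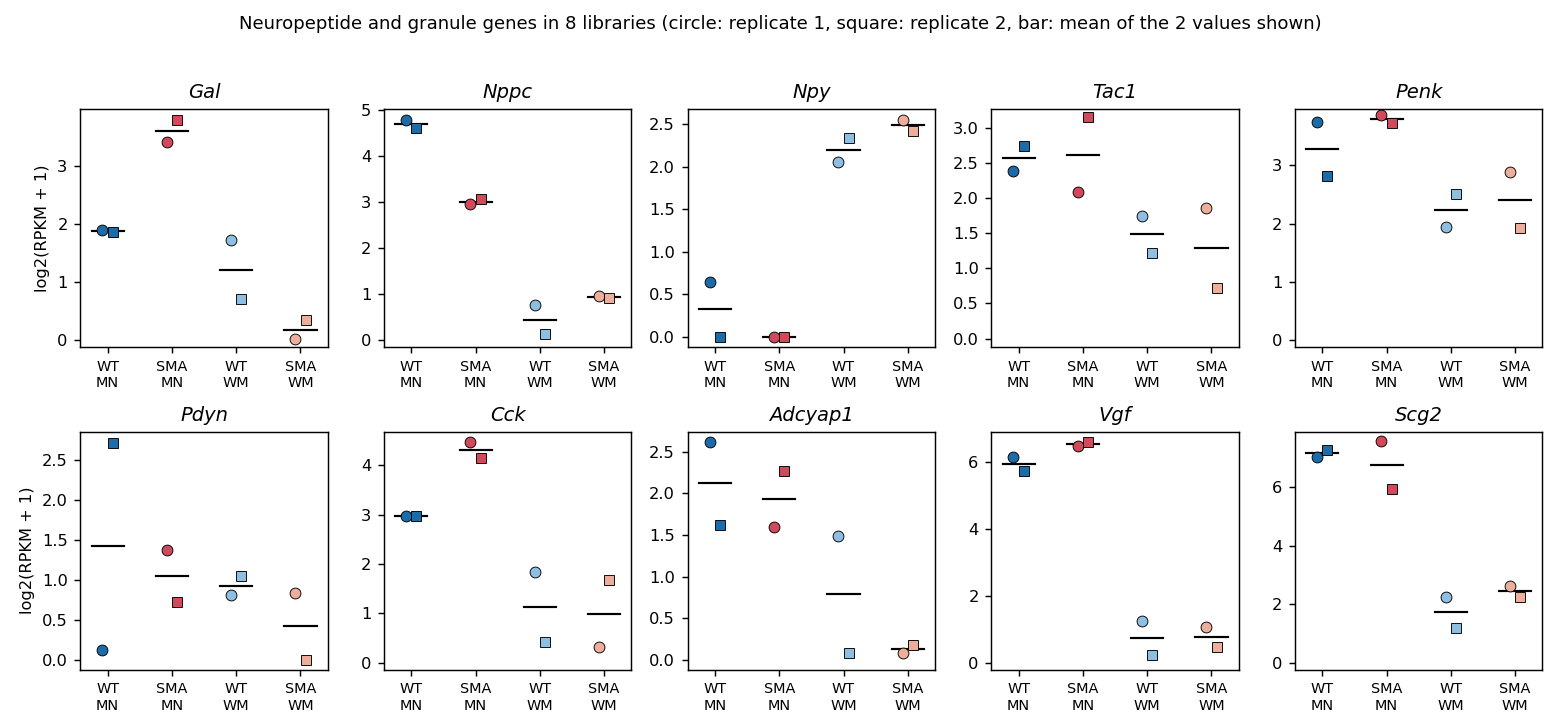
Levels of the 10 genes as log2(RPKM + 1), with 1 point per library and the 4 groups side by side in each panel. Gal sat at 9.62 and 12.8 RPKM in SMA motor neurons and at 2.70 RPKM or less in the other 6 libraries, and Nppc at 26.8 and 23.6 RPKM in WT motor neurons and 7.33 RPKM or less in the others.

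Among the other 8 genes, Cck and Vgf were higher in both SMA motor neuron libraries than in both WT libraries, but none of the 8 passed the test. Cck, the precursor of cholecystokinin, was at 6.90 and 6.90 RPKM in WT motor neurons (431 and 367 reads) and 21.3 and 16.7 RPKM in SMA motor neurons (1192 and 946 reads). The means differed by a ratio of 2.75. The log2 difference of Cck was 1.33 ± 0.55 (unadjusted p = 0.0374, adjusted p = 1.00 with limma), and in each of the 15 alternative settings it was positive and did not pass. Vgf, a granule protein cut into several bioactive peptides and known to be induced by neurotrophins, was at 70.6 and 52.4 RPKM in motor neurons of WT and 88.2 and 96.03 RPKM in those of SMA mice. Its log2 difference was 0.59 ± 0.39 (adjusted p = 1.00).

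With Gal and Nppc included, 4 of the 10 genes had SMA and WT motor neuron libraries that did not overlap, 3 higher and 1 lower in SMA. The same held for 28.2% of all genes tested, 12.7% higher and 15.5% lower. Since 2 of the 4 were picked for this, the count carries no more than that description. By limma with Benjamini-Hochberg adjustment, 0 of the 8 genes passed in motor neurons, where 0 of 13948 genes (0%) passed and 609 had an unadjusted p under 0.05. The smallest adjusted p of any gene was 0.258. Without SMA motor neuron replicate 1, 123 genes passed, none of them among the 8.

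The other genes did not separate by genotype in motor neurons. Scg2, or secretogranin II, which helps to form granules and yields secretoneurin, was at 131 and 153 RPKM in WT motor neurons and at 191 and 60.1 RPKM in SMA motor neurons, so the SMA pair enclosed the WT pair. Without SMA motor neuron replicate 2, its log2 difference of -0.40 ± 0.52 became 0.42. Tac1, the precursor of substance P, was at 4.21 and 5.70 RPKM in motor neurons of WT and 3.23 and 7.85 RPKM in those of SMA mice, again with the WT values inside the SMA range. Penk, the enkephalin precursor, was at 12.4 and 6.04 RPKM in motor neurons of WT and 13.6 and 12.3 RPKM in those of SMA mice, with WT replicate 1 just above the lower SMA library.

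For Pdyn, the sign of the difference changed with a single library and with the scale. Pdyn, the dynorphin precursor, was at 0.0882 and 5.56 RPKM in WT motor neurons (6 and 322 reads) and 1.59 and 0.650 RPKM in SMA motor neurons (97 and 40 reads). Its log2 difference was -0.37 ± 0.72, and 0.93 without WT motor neuron replicate 2. With no library left out, it was 0.13 at a pseudocount of 0.1 RPKM and 0.75 with voom on recovered reads. Adcyap1, which encodes PACAP, a peptide known for trophic effects on neurons, was at 5.13 and 2.08 RPKM in motor neurons of WT and 2.03 and 3.82 RPKM in those of SMA mice. Npy, encoding neuropeptide Y, was at 0.564 and 0 RPKM in WT motor neurons (28 and 0 reads) and at 0 in both SMA libraries. Against a floor of 3 reads per library, mean Npy was at least 4.20-fold lower in SMA than in WT motor neurons. This bound rests on WT replicate 1, since without it both groups were at 0.

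**Figure D2:**
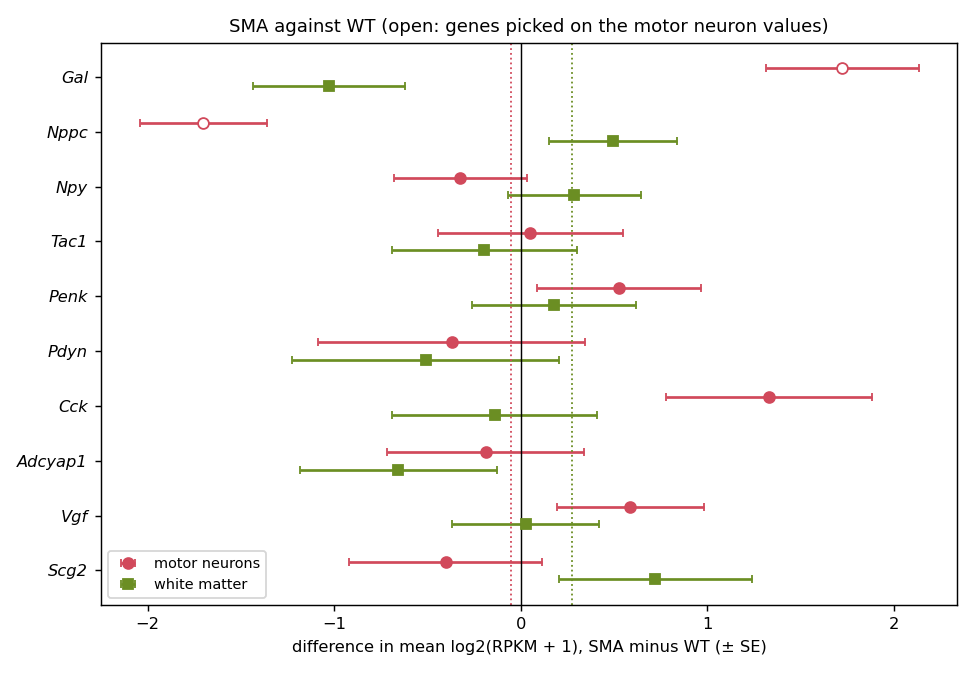
SMA minus WT difference in mean log2(RPKM + 1) of each gene, in motor neurons and in white matter, with bars for the SE, open symbols for values described without a test and dotted lines for the median of all genes tested. Gal lay at 1.72 in motor neurons and -1.03 in white matter, Nppc at -1.70 and 0.50, and none of the tested values passed.

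In white matter, none of the 10 genes passed between SMA and WT. The limma test called 0 of 10 members and 0 of 13948 genes (0%) there, with 880 genes at an unadjusted p under 0.05 and a smallest adjusted p of 0.173. Adjusted p of the members ran from 0.741 for Gal to 0.993. Nppc, Npy and Scg2 were higher in both SMA white matter libraries, and Gal was lower. White matter libraries as a whole were shifted upward in SMA: the median log2 difference of all genes was 0.27 on the deposited scale, and 0.00 after median-of-ratios scaling. Groups that did not overlap made up 43.9% of all genes, 39.7% higher in SMA and 4.17% lower.

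Npy was found mainly in white matter in both genotypes, at 3.17 and 4.06 RPKM in WT (150 and 214 reads) and 4.87 and 4.35 RPKM in SMA (257 and 244 reads). Its SMA minus WT difference there was 0.29 ± 0.36 (adjusted p = 0.871 with limma), about the size of the shift of all genes, and 0.019 after median-of-ratios scaling. Scg2 was at 3.79 and 1.29 RPKM in WT and 5.24 and 3.80 RPKM in SMA white matter, a difference of 0.72 ± 0.52 (adjusted p = 0.770). Adcyap1 was at 1.80 and 0.0593 RPKM in WT (328 and 12 reads) and 0.0593 and 0.130 RPKM in SMA white matter (12 and 28 reads). Its difference of -0.66 ± 0.53 became 0.047 without WT white matter replicate 1. WT white matter replicate 1 was also the higher WT white matter library for Gal, Nppc, Tac1, Cck, Vgf and Scg2.

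Larger differences lay between motor neurons and white matter. Vgf was at 70.6 and 52.4 RPKM in WT motor neurons and 1.37 and 0.174 RPKM in WT white matter, with means of 61.5 ± 12.9 and 0.772 ± 0.846 (n = 2 each). In SMA, its means were 92.1 ± 5.56 and 0.735 ± 0.490. The log2 difference between the regions was 5.21 ± 0.39 in WT (adjusted p = 3.2e-05 with limma) and 5.77 ± 0.39 in SMA (adjusted p = 4.3e-05). Scg2 had means of 142 ± 15.3 in motor neurons and 2.54 ± 1.76 in white matter of WT, and 125 ± 92.2 and 4.52 ± 1.02 in SMA. Its log2 differences were 5.43 ± 0.52 (adjusted p = 1.1e-04) and 4.31 ± 0.52 (adjusted p = 4.6e-04). These 2 granule proteins had the highest levels per length of the 10 genes in motor neurons of both genotypes.

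Npy went the opposite way, being lower in motor neurons. Its log2 difference was -1.88 ± 0.36 in WT (adjusted p = 0.00382 with limma) and -2.49 ± 0.36 in SMA (adjusted p = 0.00107). The WT mean was 12.8-fold lower in motor neurons, a ratio that rests on the 28 reads of WT motor neuron replicate 1. It was 6.40-fold without WT motor neuron replicate 2 and at least 50.9-fold without replicate 1, where 0 reads remained. In SMA, with 0 reads in both motor neuron libraries, it was at least 68.7-fold lower, taking 3 reads per library as the floor, which covers counting error only.

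Cck was higher in motor neurons in both genotypes, with white matter values of 2.60 and 0.332 RPKM in WT and 0.241 and 2.18 RPKM in SMA. The log2 difference between regions was 1.85 ± 0.55 in WT (adjusted p = 0.0320 with limma) and 3.32 ± 0.55 in SMA (adjusted p = 0.00218). The WT call for Cck was lost in 6 of 15 alternative settings, among them without WT motor neuron replicate 1 or 2 and without WT white matter replicate 2, with adjusted p from 0.011 to 0.243 over all 15. Whether the regional difference of Cck itself differed between genotypes was tested, and it did not pass (interaction 1.47 ± 0.78, adjusted p = 0.883).

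Adcyap1 and Penk passed in SMA and not in WT. Adcyap1 was higher in motor neurons by a log2 of 1.80 ± 0.53 in SMA (adjusted p = 0.0285 with limma) and 1.34 ± 0.53 in WT (adjusted p = 0.0876). Penk was higher by 1.40 ± 0.44 in SMA (adjusted p = 0.0377) and 1.05 ± 0.44 in WT (adjusted p = 0.104). For both genes the interaction did not pass. The SMA call for Adcyap1 was lost in 4 of 15 alternative settings (without SMA motor neuron replicate 2, without either SMA white matter library, and with no filter), and WT Adcyap1 passed without WT white matter replicate 1. The SMA call for Penk was lost in 7 of 15: with no filter, with only the libraries compared, and without SMA motor neuron replicate 1 or 2, WT white matter replicate 1 or 2, or SMA white matter replicate 2.

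Tac1 and Pdyn did not pass in either genotype on the deposited scale with all 8 libraries. Tac1 white matter values were 2.36 and 1.32 RPKM in WT and 2.61 and 0.649 RPKM in SMA, below all motor neuron values of the same genotype. Its differences were 1.08 ± 0.50 in WT (adjusted p = 0.134 with limma) and 1.33 ± 0.50 in SMA (adjusted p = 0.0688). Of 15 alternative settings, Tac1 passed in SMA in 2 (without SMA motor neuron replicate 1, and with quantile normalization) and in WT in 1 (with only the libraries compared). Pdyn white matter values of 0.755 and 1.07 RPKM in WT and 0.789 and 0 RPKM in SMA lay within or close to the motor neuron range, and its differences were 0.49 ± 0.72 and 0.63 ± 0.72.

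In count, 4 of 8 genes passed in WT, 3 higher in motor neurons and 1 lower, where 28.4% of all genes passed (18.6% higher and 9.85% lower). In SMA, 6 of 8 passed, 5 higher and 1 lower, where 30.8% of all genes passed (13.6% higher and 17.2% lower). The share of all calls that were higher in motor neurons was 65.4% in WT and 44.2% in SMA on the deposited scale. After median-of-ratios scaling it was 55.2% and 53.3%, and after quantile normalization 51.7% and 51.7%. Without grouping by test, 8 of the 10 genes had all motor neuron values above all white matter values in WT, and 8 of 10 in SMA, with Npy below in each. Both sets of 8 hold Gal and Nppc, picked on these motor neuron libraries, beside Tac1, Penk, Cck, Adcyap1, Vgf and Scg2. The 2 counts thus carry no more than a description. In WT the groups did not overlap for 70.0% of all genes, 39.0% above and 31.0% below. In SMA the share was 63.8%, 26.7% above and 37.2% below.

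Gal and Nppc are given without a test in these comparisons, because they share the motor neuron libraries that led to their choice. Mean Gal was 1.83-fold higher in motor neurons than in white matter in WT and 80.3-fold higher in SMA. The log2 difference of 0.67 ± 0.41 for Gal in WT was 1.18 without WT white matter replicate 1 and 0.16 without replicate 2. Mean Nppc was 65.0-fold higher in motor neurons in WT and 7.74-fold higher in SMA. The ratios are imprecise where white matter reads were few. Gal in SMA was 42.4-fold without SMA white matter replicate 1, which held a single Gal read. Nppc in WT was 36.8-fold without WT white matter replicate 2 (9 reads) and 282-fold without replicate 1. For the other 8 genes the SMA effect was not found to differ between the regions: 0 of 8 passed the interaction in limma (adjusted p from 0.883 to 0.980), as did 0% of all genes, with 693 at an unadjusted p under 0.05.

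**Figure D3:**
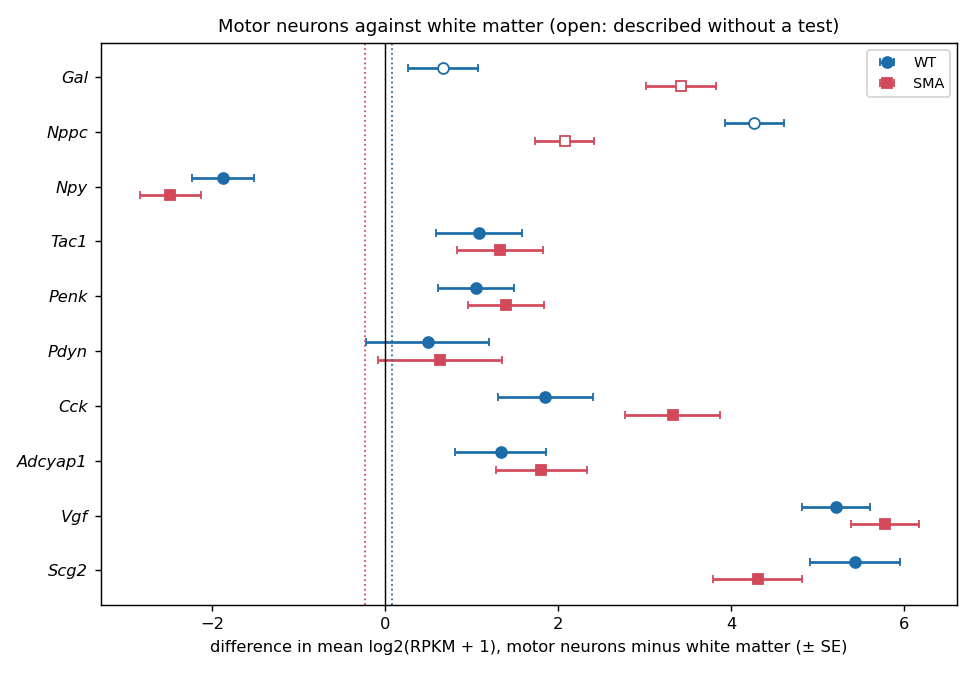
Motor neuron minus white matter difference in mean log2(RPKM + 1) of each gene in WT (circles) and SMA (squares), with bars for the SE, open symbols for values without a test and dotted lines for the median of all genes tested (0.08 in WT, -0.24 in SMA). Vgf and Scg2 lay between 4.31 and 5.77, Npy at -1.88 and -2.49, and the order of Gal and Nppc was exchanged between WT and SMA.

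Among the 8 peptide precursors, the order of mean levels per length in WT motor neurons was Nppc, Penk, Cck, Tac1, Adcyap1, Pdyn, Gal and Npy. The mean of Nppc was 25.2 ± 2.26 RPKM (n = 2) and that of Penk 9.20 ± 4.47. Gal and Nppc were picked on the motor neuron libraries, so their places in the order of either genotype are a description only. An SD of 2 libraries cannot settle an order. Penk and Cck, Tac1 and Adcyap1, Adcyap1 and Pdyn, and Pdyn and Gal differed by less than the larger SD of each pair, while Cck and Tac1, and Gal and Npy, differed by more. In SMA motor neurons the order was Cck (19.0 ± 3.21), Penk (13.0 ± 0.958), Gal (11.2 ± 2.25), Nppc (7.04 ± 0.404), Tac1 (5.54 ± 3.27), Adcyap1, Pdyn and Npy. Of the SMA neighbours, Penk and Gal, Nppc and Tac1, and Tac1 and Adcyap1 differed by less than the larger SD. The 8 precursors together summed to 58.7 and 52.5 RPKM in WT motor neurons and 58.1 and 61.5 RPKM in SMA motor neurons. Without Gal and Nppc the sums were 29.2 and 26.3 RPKM in WT and 41.8 and 41.4 RPKM in SMA. Most of that difference was Cck, with means of 6.90 in WT and 19.0 in SMA. Penk and Tac1 had slightly higher means in SMA, and Adcyap1, Pdyn and Npy had lower ones. None of these genes passed between SMA and WT.

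The genes whose pattern across the 8 libraries was most like that of Gal were 4933403G14Rik, 4930429B21Rik, Arf5, 4930507D05Rik and Lhx5, with Pearson correlations of log2(RPKM + 1) from 0.968 down to 0.946. Lhx5, a homeobox gene of spinal interneurons, was at 0.526 and 0.542 RPKM in WT motor neurons and 2.56 and 2.61 RPKM in SMA motor neurons. For Nppc they were 3830431G21Rik, Creb5, Polr3g, Irs4 and Pptc7, with correlations from 0.993 to 0.985. These values describe the 8 libraries, which fall into the 4 groups, and carry no test.

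Of 56 further precursor genes, 21 were tested. In WT, 9 of the 21 were higher in motor neurons and 0 lower (median log2 difference 1.02, against 0.08 for all genes, of which 18.6% were called higher): Calca, Calcb, Uts2, Uts2d, Sst, Pnoc, Nts, Cartpt and Ucn. In SMA, 7 were higher, all but Cartpt and Ucn, and 0 lower (median 1.04, against -0.24 and 13.6% for all genes). The other 12 precursors in WT and 14 in SMA did not pass. Calca and Calcb, the CGRP genes of motor neurons, are near copies whose reads may have been shared. Uts2, the urotensin II precursor, had a mean of 206 ± 23.5 RPKM in motor neurons of WT and 352 ± 56.0 RPKM in those of SMA mice (n = 2 each), a difference of 0.76 ± 0.60 that did not pass with limma (adjusted p = 1.00). Between SMA and WT, 0 of 21 passed in motor neurons (median -0.03) and 0 of 21 in white matter (median 0.29). For all genes the medians were -0.05 and 0.27, and 0% passed. Calca also stands in the motor neuron list and Sst in the interneuron list.

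Most granule proteins were higher in motor neurons. Of 15 tested besides Vgf and Scg2, 13 were higher in motor neurons in WT (median 2.40, against 0.08 for all genes, of which 18.6% were called higher) and 12 in SMA (median 2.36, against -0.24 and 13.6%), with 0 lower. Resp18, a granule protein of endocrine and neural cells, had means of 286 ± 11.7 RPKM in WT motor neurons and 9.90 ± 0.0531 RPKM in WT white matter. Chromogranin B, Chgb, had means of 84.4 ± 11.6 and 2.71 ± 0.410 RPKM. Between SMA and WT, 0 of the 15 passed in motor neurons (median 0.01) and 0 in white matter (median 0.47). For all genes the medians were -0.05 and 0.27, and 0% passed.

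Processing enzymes were split. Of 15 tested, Pcsk2 and Ece2 were higher in WT motor neurons, and Pcsk2 was higher and Ece1 and Pcsk6 lower in SMA motor neurons. These counts were below the shares of all genes called higher (18.6% in WT, 13.6% in SMA) or lower (17.2% in SMA). Pcsk2 was at 22.7 and 15.6 RPKM in WT motor neurons and 17.4 and 18.4 RPKM in SMA motor neurons, against 1.19 to 2.42 RPKM in the 4 white matter libraries. Pcsk1 stayed under 1 RPKM in all 8 libraries and was not tested. Cpe, the carboxypeptidase that trims the cut peptides, was high everywhere, from 86.9 to 152 RPKM, and Pam ranged around 7.31 ± 0.110 RPKM in WT motor neurons and 8.23 ± 1.63 RPKM in WT white matter. For SMA against WT, 0 of 15 passed in either region (median 0.03 in motor neurons and 0.46 in white matter).

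Receptors of the 8 peptides and of their families were measured in the same captures, and 13 of 22 were tested. Npr1, counted among the 13, mainly binds natriuretic peptides other than the C-type. All 3 galanin receptors were below the filter and were not tested. Galr1 was at 0.306 and 0.135 RPKM in WT motor neurons (80 and 30 reads) and 1.03 and 0.820 RPKM in SMA motor neurons (241 and 194 reads). Galr2 was at 1.06 and 0.785 RPKM in WT motor neurons and 0 and 0.519 RPKM in SMA motor neurons. The 2 receptors thus stood in opposite order between the genotypes, without a test and at 1.06 RPKM or less. Of all genes tested, 28.2% had groups that did not overlap in this comparison, 12.7% higher and 15.5% lower in SMA. Galr3 did not exceed 0.291 RPKM.

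The natriuretic peptide receptors were divided between the captures. Npr3, the clearance receptor that takes up C-type natriuretic peptide, was at 24.99 and 18.7 RPKM in WT motor neurons and 24.0 and 15.1 RPKM in SMA motor neurons, against 0.964 RPKM or less in white matter. Its log2 difference between regions was 4.02 ± 0.35 in WT and 3.41 ± 0.35 in SMA, and both passed with limma (adjusted p = 6.5e-05 and 2.0e-04). Npr2, the guanylyl cyclase that C-type natriuretic peptide activates, had lower means in motor neurons, 4.45 ± 0.112 against 9.53 ± 0.178 RPKM in WT (adjusted p = 0.0515) and 4.08 ± 1.40 against 8.70 ± 0.755 RPKM in SMA (adjusted p = 0.0468). Only the SMA value passed. Between genotypes in motor neurons, Npr3 differed by -0.17 ± 0.35 and Npr2 by -0.13 ± 0.32, neither past the test.

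Among the remaining receptors, Tacr1 (substance P), Npy1r and Npy2r (neuropeptide Y) and Oprm1 (the mu opioid receptor) were higher in motor neurons in WT, and Tacr1 and Oprm1 in SMA. Npy1r was at 2.14 and 1.78 RPKM in WT motor neurons (587 and 416 reads) and 0.334 and 0.497 RPKM in SMA motor neurons (82 and 123 reads). The groups did not overlap, and the difference of -1.07 ± 0.32 did not pass with limma (unadjusted p = 0.00826, adjusted p = 0.796). Adcyap1r1, the receptor of PACAP, was high in every library, from 66.0 to 132 RPKM, and lower in SMA motor neurons than in SMA white matter by a log2 of 0.80 (-0.80 as motor neurons minus white matter, adjusted p = 0.0204). In all, 5 of 13 receptors were higher in motor neurons and 0 lower in WT (median 0.60), and in SMA 3 were higher and 3 (Adcyap1r1, Npr1 and Npr2) lower (median 0.91). Of all genes, 18.6% were called higher and 9.85% lower in WT, and 13.6% and 17.2% in SMA. Their median regional differences were 0.08 in WT and -0.24 in SMA. The receptor counts were not tested against these shares. Between SMA and WT, 0 of 13 passed in motor neurons (median -0.13) or white matter (median 0.22). All genes had medians of -0.05 and 0.27, and 0% passed.

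**Figure D4:**
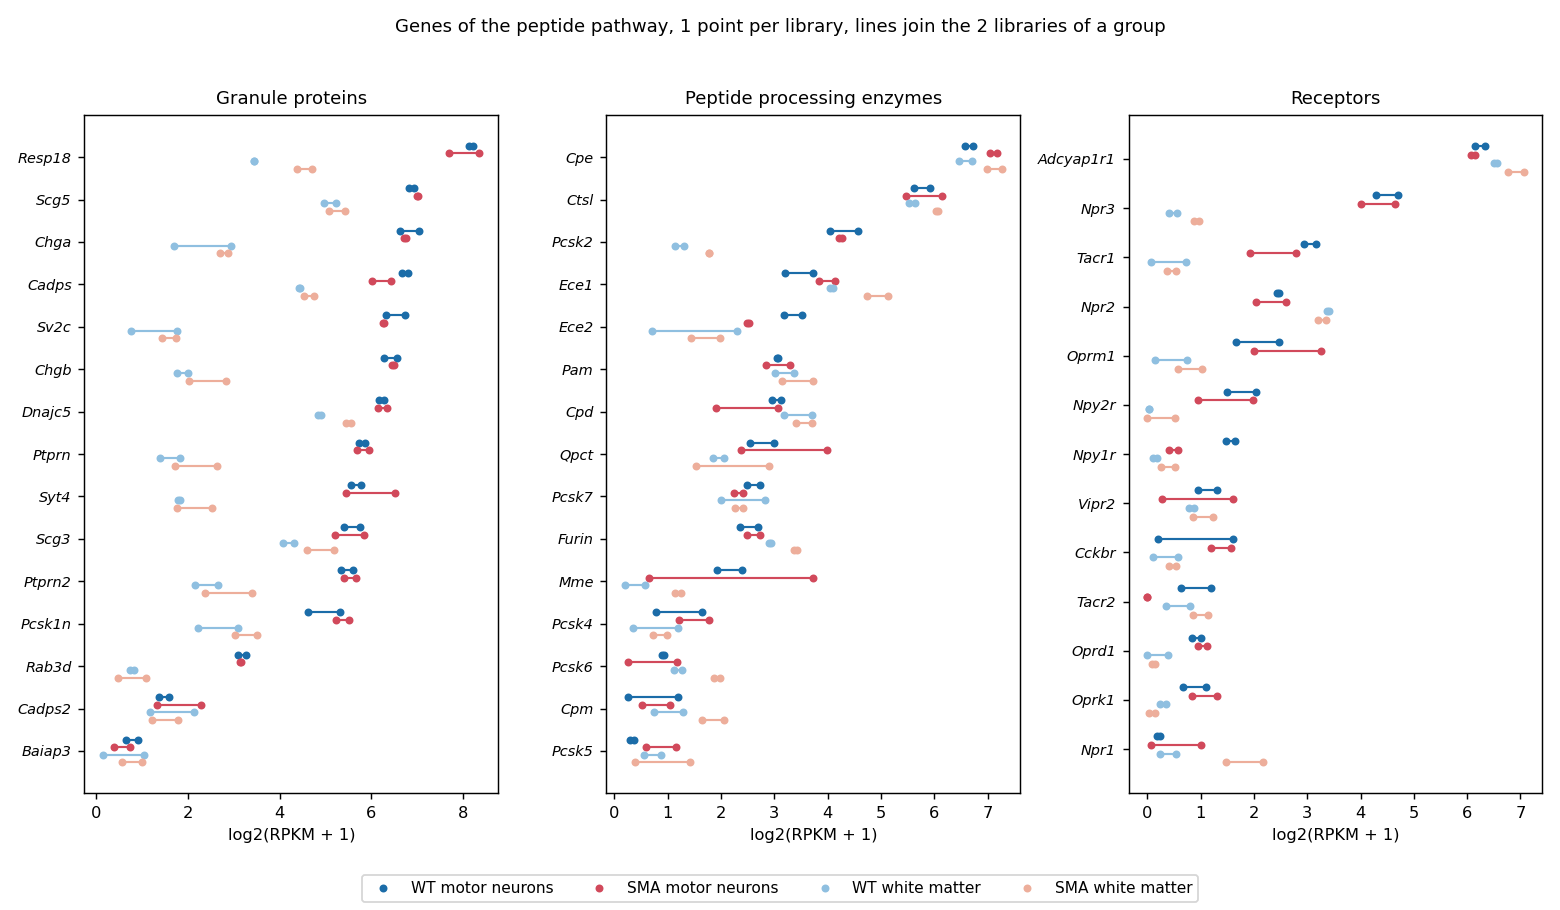
Levels of the tested granule proteins, processing enzymes and receptors as log2(RPKM + 1), with 1 point per library and lines joining the 2 libraries of a group. Granule proteins such as Resp18 (286 against 9.90 RPKM in WT) were high in motor neurons, Cpe and Adcyap1r1 were high in both captures, and Npy1r was lower in both SMA than in both WT motor neuron libraries.

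Genes known to respond to axon injury, a setting in which Gal and Vgf are known to rise, were compared as a further list. Of 20 tested besides the 10 genes, 0 passed between SMA and WT in motor neurons (12 positive and 8 negative, median 0.05). In white matter 0 passed (median 0.50, against the upward shift of 0.27 for all genes). Since 0 of 13948 genes passed in either region, these counts say nothing particular to the list. Gap43, a growth cone protein, had means of 441 ± 21.2 RPKM in motor neurons of WT and 431 ± 23.0 RPKM in those of SMA mice. Between the regions, motor neurons had 12 of these genes higher and 2 lower in WT, and 10 higher and 2 lower in SMA. Of all genes, 28.4% were called in WT (18.6% higher and 9.85% lower) and 30.8% in SMA (13.6% higher and 17.2% lower).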

How the data were processed

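Total RNA of 8 laser-captured samples was amplified and sequenced, and the authors deposited 1 table of RPKM per library. The reads were handled with TopHat, bedtools and DESeq on mm9, per the submitters' processing notes. Not given in the sources used here are their versions, the gene models and the counting rule, with its use of strand and multiple matches. All 10 genes and the lists were chosen with earlier results of these data known.

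RPKM values were taken as whole multiples of 1 read per gene. For 17431 of 17431 genes above 0 in at least 3 libraries (100%), a length was found that gave whole reads within 0.02 of a read. Many lengths were tried, so a gene above 0 in few libraries could match by accident, and this share is not a check. Of 408 small RNA genes recovered, 94.1% had the reference length, but such genes also set the denominators. For a 1 kb gene, 1 read equalled 0.00972 to 0.0129 RPKM, depending on the library.

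Tests used limma 3.58.1 in R 4.3.3 on log2(RPKM + 1) for 13948 genes with at least 1 RPKM in at least 2 libraries. One model of 4 group means with eBayes and trend gave 5 two-sided comparisons, adjusted by Benjamini-Hochberg at 0.05. It was tested on simulated data. Alternatives were another pseudocount, no filter, 2 scalings, only the compared libraries, a replicate block, each library left out, and voom on recovered reads without Rn45s. Named were all 10 genes, pathway genes, leading list genes and, for Gal and for Nppc, the 5 most correlated genes. Lists were described by counts and medians. Python 3.11.15, numpy 2.4.6, pandas 2.3.3 and matplotlib 3.10.9 were used.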

Additional observations from a re-analysis of the deposited data

Results flagged for a closer look

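Gal and Nppc each had SMA minus WT differences of opposite sign in the 2 regions. For Gal, both SMA motor neuron libraries lay above both WT ones and both SMA white matter libraries lay below both WT ones, and the SMA effect in motor neurons minus that in white matter was a log2 of 2.75. In WT, Gal in white matter replicate 1 (2.29 RPKM) lay near the motor neuron values (2.70 and 2.62 RPKM). For Nppc, the SMA libraries were lower in motor neurons and higher in white matter, and the difference between the effects was -2.20. The white matter differences alone did not pass with limma (adjusted p = 0.741 for Gal and 0.763 for Nppc), and Nppc's 0.50 stood beside a shift of 0.27 for all genes there. These differences between regions were not tested, because both genes were picked on the motor neuron libraries.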

How the results depend on the processing

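With 2 libraries per group, the SE of a member's difference between groups was 0.34 to 0.72 (log2), which limits what could be detected. Under every setting run, SMA against WT called 0 of the 8 members tested in motor neurons, 0 of 10 in white matter and 0 of 8 in the interaction. The regional calls numbered 3 to 5 in WT (4 as reported) and 4 to 7 in SMA (6 as reported). Vgf, Scg2 and Npy kept their regional calls in both genotypes, and Cck in SMA, under every setting that gave a value. With the replicate block, the member calls were 0 and 0 for SMA against WT, 4 and 6 for the regions and 0 for the interaction, as without it. Whether the replicate numbers pair the samples is not known. The correlation of replicate differences between groups lay between -0.34 and 0.08, which cannot settle it. The block also separates the libraries with Xist from those with Ddx3y. No call of a member changed with the block.

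Signs turned for differences that had not passed. With each library left out, SMA minus WT in motor neurons ranged from -0.68 to 0.31 for Adcyap1, -0.48 to 0.58 for Tac1, -1.67 to 0.93 for Pdyn and -1.22 to 0.42 for Scg2. In white matter it ranged from -1.36 to 0.047 for Adcyap1, -0.86 to 0.58 for Cck, -0.30 to 0.66 for Penk, -0.76 to 0.37 for Tac1 and -0.48 to 0.53 for Vgf. Pdyn between the WT regions ranged from -0.81 to 1.78, and was -0.98 with voom. Pdyn in motor neurons was 0.13 at a pseudocount of 0.1 and 0.75 with voom. In white matter, Penk was -0.088 with median-of-ratios scaling, -0.10 with quantile normalization and -0.16 with voom, Vgf was -0.11 and -0.15 with the first 2, and Npy was -0.014 with voom. The median white matter difference of all genes was 0.27 as reported. It was 0.00 with median-of-ratios scaling, -0.01 with quantile normalization and -0.03 with voom. The cause of the turns was not tested.

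Counts over all genes moved with single libraries. Between the WT regions, 3967 calls became 2015 and 2108 without WT motor neuron replicate 1 and 2, and 2586 and 2118 without WT white matter replicate 1 and 2. Between the SMA regions, 4295 became 2272 and 2410 without SMA white matter replicate 1 and 2, and 2415 with only the libraries compared. SMA against WT in motor neurons had 0 calls as reported, 123 without SMA motor neuron replicate 1 and 1 with no filter or with voom. In white matter, 0 became 1 with quantile normalization, only the compared libraries, voom, or without either SMA motor neuron library, and in the interaction 0 became 17 without SMA motor neuron replicate 1.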
